A study of Rattus norvegicus with 20 samples.

Results

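Channel genes of the rat choroid plexus, 5 in number, were followed through 4 groups of female Zucker rats: the potassium channel genes Kcnk1 (ENSRNOG00000019937), Kcnk12 (ENSRNOG00000016110) and Kcnu1 (ENSRNOG00000014741), the ATP-gated channel gene P2rx6 (ENSRNOG00000001873) and the ATP release channel gene Calhm1 (ENSRNOG00000030682). They are 5 of the 32883 Ensembl genes measured in each rat. All were chosen by the study's own count-based comparison of untreated obese with untreated lean rats, which listed them as plasma membrane transport proteins with a different transcript level. The difference between those 2 groups is therefore given below as a description only. Tests are kept to the injected cohort, whose rats played no part in the study's choice. The 5 were taken here from 12 such proteins that it listed, with earlier results of these data known. The p-values behind the study's limit rest on read counts that were not used here, so values just inside and just outside that limit are not given.

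All rats were 16 weeks old, and each gave 1 RNA library from the choroid plexus of its lateral and 4th ventricles. Lean rats were heterozygous for the fatty allele of the leptin receptor gene (+/fa) and obese rats homozygous (fa/fa), so every animal carried at least 1 copy of it. The untreated cohort held 6 lean and 6 obese rats. In the injected cohort, 4 lean control rats (+/fa) were given vehicle (VEH, 100 µl of sesame oil) and 4 obese + TT rats (fa/fa) the same volume of oil with testosterone propionate (1 mg), both under the skin and 2 times a week for 4 weeks. No lean rat received testosterone and no obese rat received oil alone, so obesity and testosterone cannot be told apart within this cohort.

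The choroid plexus is an epithelium around vessels and stroma that secretes cerebrospinal fluid (CSF). Potassium enters its cells through the Na+/K+-ATPase and leaves again through potassium channels, which keep the pumps supplied and set the membrane voltage. Kcnk1 (TWIK-1) and Kcnk12 (THIK-2) encode tandem-pore-domain subunits, the family that carries background or leak potassium current. Kcnu1 encodes Slo3, a voltage-gated and pH-sensitive potassium channel known best from sperm. Extracellular ATP acts on P2X receptors, cation channels opened by ATP. P2rx6 encodes P2X6, a subunit that forms working channels poorly on its own and assembles with other P2X subunits. Calhm1 encodes a voltage-gated channel that lets ATP out of cells, with its best-known role in taste cells.

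None of the 10 epithelial markers listed (among them Ttr, Folr1, Otx2 and Kcnj13) was at 0 in any group. The same held for every matched marker of the other cell types, so it is no test of the tissue label. Values are in TPM, the share of transcripts a gene takes in a library, scaled to a sum of 1000000 after division by gene length. Read depth cannot be recovered from them. A library had 14968 to 16860 genes above 0 TPM, the lowest of these counts in lean control rat 14. Ttr alone took 25.8 to 39.3% of the TPM of a library, so a change in this gene shifts the TPM of all others. As these are bulk samples, fewer cells of a type and less RNA per cell cannot be told apart. In the RefSeq annotation of assembly GRCr8, which is not the build the authors used, P2rx6 overlaps Lrrc74b and Kcnk12 overlaps LOC120103460. Whether strand was used in the quantification is not given in the sources used here, so reads from such overlaps may not be separable.

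The members spanned a wide range of abundance, with Kcnk1 as the leading transcript. Its group means lay between 88.6 and 115.9 TPM, between rank 819 and rank 1008 of all genes by group mean. P2rx6 followed at 22.9 to 27.0 TPM (rank 3005 to 3809). Kcnk1 was above P2rx6, and P2rx6 above Calhm1, in every one of the 20 rats. Calhm1, Kcnk12 and Kcnu1 were scarce, with group means of 1.92 to 4.495 TPM, 1.23 to 2.31 TPM and 0.75 to 1.80 TPM. Among these scarce transcripts the order varied between cohorts. Calhm1 was above Kcnk12 in 2 of 6 lean and 5 of 6 obese rats, but in 4 of 4 lean control and 4 of 4 obese + TT rats. Kcnk12 was above Kcnu1 in 6 of 6 lean and 0 of 6 obese rats, an order fixed in part by the choice of these genes on that contrast. In the injected rats, which did not enter the study's choice, Kcnk12 was above Kcnu1 in 4 of 4 lean control and 4 of 4 obese + TT rats.

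**Figure D1:**
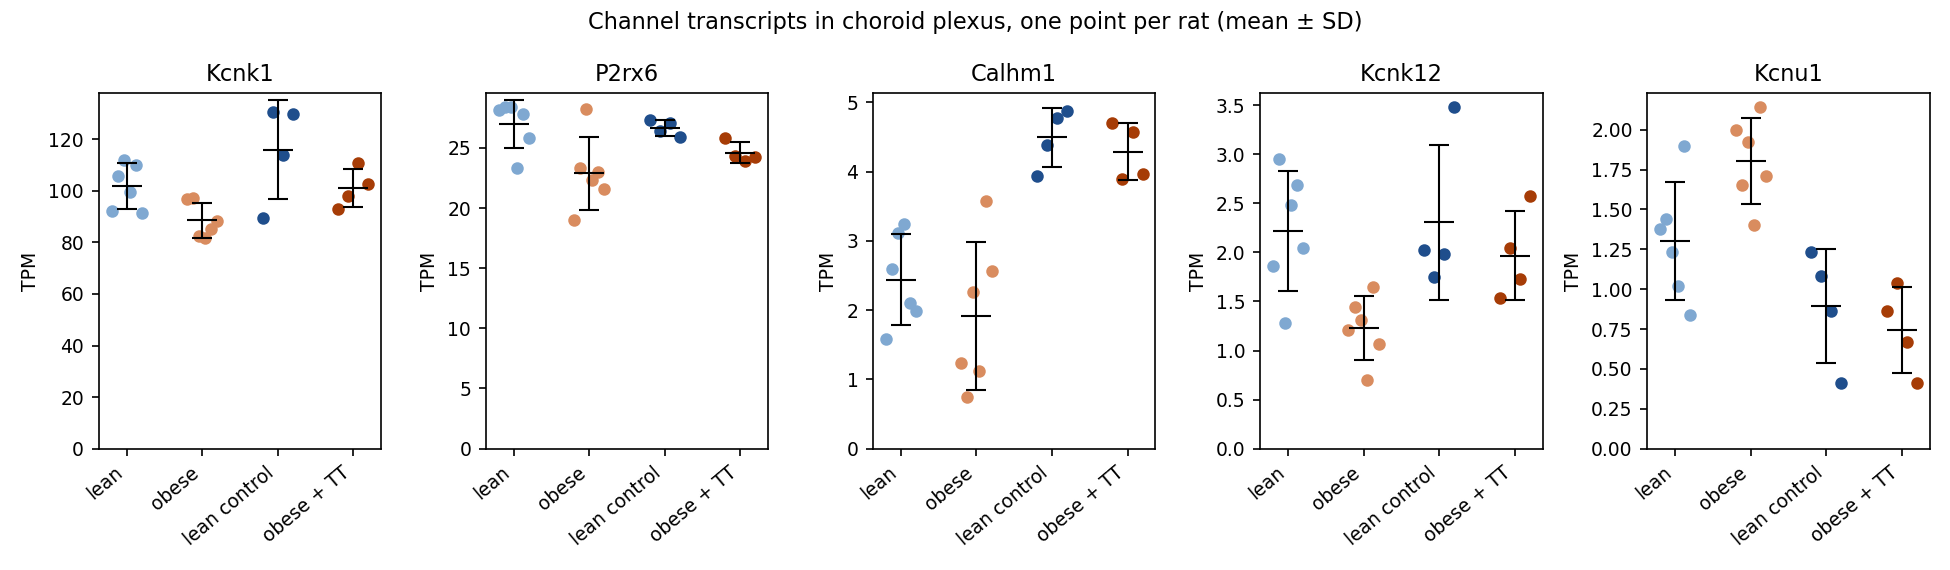
TPM of Kcnk1, P2rx6, Calhm1, Kcnk12 and Kcnu1 in each rat (points) of the lean (n = 6), obese (n = 6), lean control (n = 4) and obese + TT (n = 4) groups, with the group mean and SD in black and each vertical axis starting at 0. The 8 injected rats lie between 3.9 and 4.88 TPM for Calhm1, above all 12 untreated rats, while the injected groups overlap each other for every gene but P2rx6.

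In the untreated cohort, which served to choose the genes, Kcnk1, P2rx6, Calhm1 and Kcnk12 had lower and Kcnu1 a higher mean in the obese rats. The lean rats ranged from 91.6 to 112.1 TPM for Kcnk1 (median 102.8) and the obese rats from 81.7 to 97.1 TPM (median 86.8). P2rx6 ranged from 23.3 to 28.4 TPM in lean rats (median 28.0) and from 19.0 to 28.2 TPM in obese rats (median 22.7), with 5 of 6 obese rats below every lean rat. Kcnk12 went from 1.28 to 2.95 TPM in lean rats (median 2.26) and from 0.70 to 1.65 TPM in obese rats (median 1.26). This was the widest difference of the 5, at -44.5% of the lean mean. Kcnu1 lay between 0.84 and 1.90 TPM in lean rats (median 1.31) and between 1.40 and 2.14 TPM in obese rats (median 1.82).

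Calhm1 was the most scattered of the channels in the untreated obese rats. It ranged from 1.58 to 3.25 TPM in lean rats (median 2.36) and from 0.74 to 3.57 TPM in obese rats (median 1.75), so that 3 obese rats lay below and 1 obese rat above all lean rats. Its coefficient of variation was 56.0% in obese and 27.1% in lean rats, against 9.46% in lean control and 9.61% in obese + TT rats. For none of the 5 genes were the obese and lean rats free of overlap, where 0.54% of the 15175 genes averaging 0.1 TPM or more were. Since this contrast chose the genes, nothing is read from that count.

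The injected cohort was used to ask whether these channels also differed between lean control and obese + TT rats. All 5 means were lower in the obese + TT rats, and none had an adjusted p under 0.05 in limma. The exact test of single genes, without adjustment for the 5 tests, gave a p under 0.05 for P2rx6 alone. Differences are given as log2 differences, obese + TT minus lean control, of mean log2(TPM + 0.1), a scale on which the 0.1 added to each value makes the change of scarce genes look smaller. They were tested with limma across 15259 genes with Benjamini-Hochberg adjustment, and each channel also by an exact permutation test of the rats. As limma called 0 of the 15259 genes, the lack of a call does not show that a channel was unchanged. All tests were 2-sided.

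Kcnk1 was the most abundant of the chosen potassium channel genes. It was at 89.5, 130.4, 114.0 and 129.8 TPM in lean control rats 13 to 16. In obese + TT rats 17 to 20 it was at 93.03, 98, 110.67 and 102.5 TPM. Lean control rat 13 lay below all obese + TT rats, while the other lean control rats lay above them. The means were 115.9 ± 19.2 and 101.0 ± 7.49 TPM (± SD, 4 rats each). The log2 difference was -0.18 (standard error 0.12, 95% interval -0.44 to 0.075, adjusted p = 0.763 from limma; exact permutation test, p = 0.229). Without rat 13, which was singled out after its values were seen, the log2 difference was -0.30 (standard error 0.078, adjusted p = 0.229 from limma). The groups then did not overlap (exact permutation p = 0.0571, the smallest that 3 against 4 rats can give).

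Kcnk12, the other tandem-pore-domain gene, stood at 2.02, 1.75, 1.98 and 3.48 TPM in lean control rats 13 to 16 and at 1.53, 2.04, 1.73 and 2.57 TPM in obese + TT rats 17 to 20. Lean control rat 16 stood above all others, and the other lean control rats lay within the range of the obese + TT rats. The log2 difference was -0.19 (standard error 0.24, 95% interval -0.74 to 0.35, adjusted p = 0.891 from limma; exact permutation test, p = 0.514). It was 0.013 without rat 16.

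Kcnu1, the only one of the 5 with a higher mean in the untreated obese rats, was at 1.23, 1.08, 0.86 and 0.41 TPM in lean control rats 13 to 16. In obese + TT rats 17 to 20 it was at 0.86, 1.04, 0.67 and 0.41 TPM. Every obese + TT rat lay within the range of the lean control rats. The log2 difference was -0.21 (standard error 0.37, 95% interval -1.03 to 0.61, adjusted p = 0.928 from limma; exact permutation test, p = 0.6). Single rats set its size and sign, as it was -0.50 without lean control rat 16, -0.041 without lean control rat 13 and 0.013 without obese + TT rat 20.

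P2rx6, the ATP-gated channel gene, was at 27.3, 26.4, 27.1 and 25.9 TPM in lean control rats 13 to 16 and at 25.9, 24.4, 23.9 and 24.3 TPM in obese + TT rats 17 to 20. Every obese + TT rat lay below every lean control rat, but the nearest pair, rat 17 at 25.85 TPM and rat 16 at 25.88 TPM, were all but equal. The means were 26.7 ± 0.65 and 24.6 ± 0.85 TPM (± SD, 4 rats each), a difference of -7.74% of the lean control mean. The log2 difference was -0.12 (standard error 0.056, 95% interval -0.24 to 0.0091, adjusted p = 0.689 from limma). By exact permutation, without adjustment for the number of channels tested, p was 0.0286, the smallest that 4 against 4 rats can give. The separation depended on the scale of the values. It held with Ttr left out of the total, but 3 of 4 obese + TT rats were below all lean control rats in FPKM, and 2 of 4 after scaling by the median ratio of all genes.

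Calhm1, the ATP release channel gene, was at 3.94, 4.39, 4.77 and 4.88 TPM in lean control rats 13 to 16 and at 4.71, 3.90, 4.57 and 3.97 TPM in obese + TT rats 17 to 20. The groups overlapped, and only obese + TT rat 18 was below all lean control rats. The log2 difference was -0.067 (standard error 0.12, 95% interval -0.34 to 0.20, adjusted p = 0.933 from limma; exact permutation test, p = 0.514).

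Counted together, 0 of the 5 channels had an adjusted p under 0.05 in limma, where 0% of the 15259 genes tested had one. The study's own count-based comparison of these groups did call genes, with none of the 5 channels among them. The 0% therefore holds for this limma test only. Leaving out 1 rat gave 0 to 25 of all genes, the highest of these counts without lean control rat 13, and still 0 of the 5 channels. With an unadjusted p under 0.05 the count was 0 of 5, against 7.43% of all genes, 648 of them higher and 486 lower in obese + TT rats. With Ttr left out of the total that split was 485 higher and 791 lower. Only P2rx6, 1 of the 5, had groups without overlap, against 4.02% of all genes in either direction and 1.66% with the obese + TT rats lower. The median log2 difference was -0.18 over the 5 channels and 0.0092 over all genes.

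Set side by side, the log2 differences were -0.20 in the untreated and -0.18 in the injected cohort for Kcnk1, and -0.24 and -0.12 for P2rx6. For Calhm1 they were -0.47 and -0.067, for Kcnk12 -0.79 and -0.19, and for Kcnu1 0.47 and -0.21. Kcnu1 thus had opposite signs in the cohorts, but its sign in the injected cohort was not settled. The interval there included 0, and the value was 0.013 without obese + TT rat 20. No difference between the cohorts was tested, because the untreated values chose the genes.

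**Figure D2:**
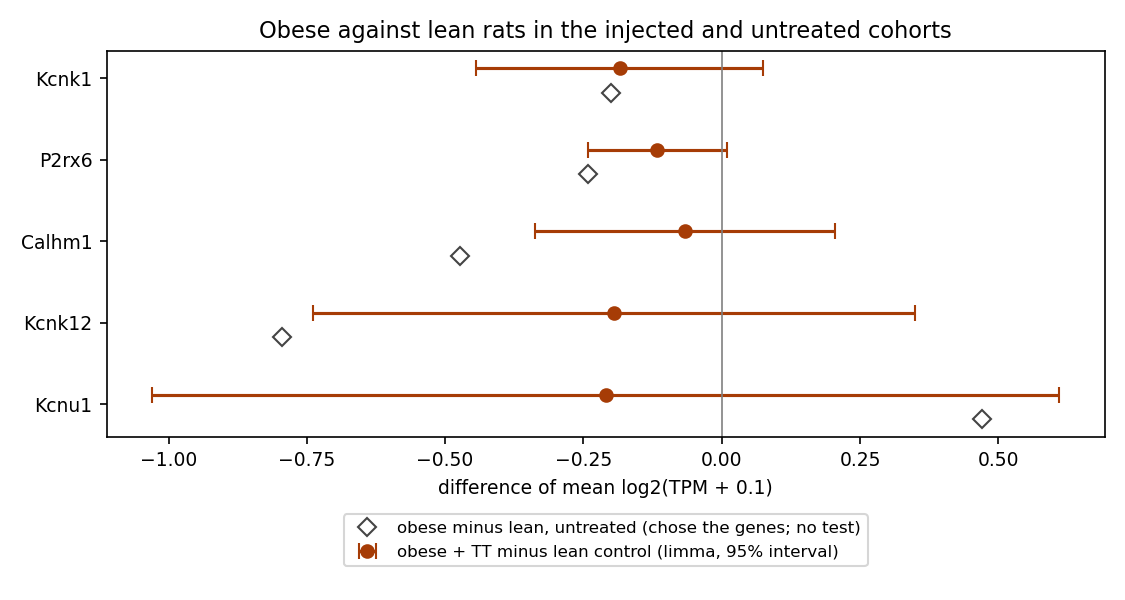
Log2 difference (horizontal axis, of mean log2(TPM + 0.1)) for each channel between obese + TT and lean control rats, as filled points with the 95% interval from limma (n = 4 of each), and between untreated obese and lean rats, as open diamonds without an interval (n = 6 of each). All 5 intervals of the injected cohort include 0, and the Kcnu1 interval, from -1.03 to 0.61, is the widest.

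**Figure D3:**
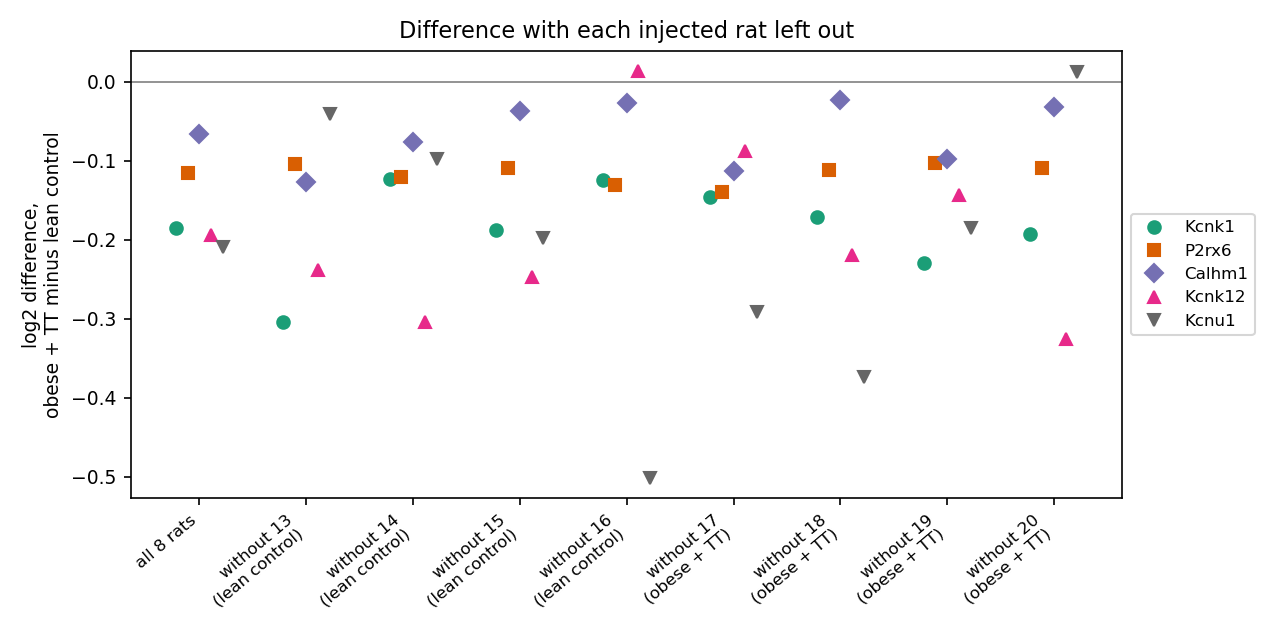
Log2 difference between obese + TT and lean control rats (vertical axis) for each channel in all 8 injected rats and with each rat left out in turn (horizontal axis). Kcnk1, P2rx6 and Calhm1 stay below 0 throughout, whereas Kcnk12 reaches 0.013 without rat 16 and Kcnu1 0.013 without rat 20.

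Markers of other cells also varied within the injected cohort. The summed TPM of the red blood cell genes Hba-a1 and Hbb (2 of 3 listed) was 1759 to 4662 in lean control and 3815 to 6830 in obese + TT rats. The immune gene Cd74 (1 of 7 listed) was at 58.9 to 87.0 and 26.4 to 68.9 TPM. Stromal and mural markers (3 of 7 listed) summed to 10.0 to 22.1 and 10.1 to 20.8 TPM, and the endothelial marker Plvap (1 of 6 listed) was at 1.68 to 10.6 and 3.46 to 6.74 TPM. The part of these cells in the channel values was not tested. None of the 10 neuronal, 5 astrocyte and 6 oligodendrocyte markers listed could be matched to an identifier, and these cells were not analysed here.

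Other genes of the same pathways were taken from lists of channel families and purinergic genes, of which 7 further genes could be matched to an identifier and tested. Of these, 0 had an adjusted p under 0.05 in limma, while 1 with a higher mean (Kcnk16) and 2 with a lower mean (Kcnt1 and Lrrc38) in obese + TT rats had an unadjusted p under 0.05, beside 7.43% of all genes. These 3 had been picked by the study on these same libraries, so nothing is read from their number or direction. Of the 4 that had not been picked on these libraries, 0 had an unadjusted p under 0.05, and 1 had one in FPKM, with the robust option, in the fit of all 20 rats and without obese + TT rat 18. Among these 4, Entpd3 had been picked by the study on the untreated rats. The median log2 difference of the 7 was 0.13, with values in both directions. It was 0.052 without lean control rat 15 and 0.031 over the 6 that averaged at least 1 TPM. The lists were thinly covered. Of the tandem-pore-domain genes 3 of 14 could be matched, of the Slo channels and their auxiliary subunits 3 of 12, of the potassium channels of the epithelium 2 of 6, of the P2X receptors 1 of 7, of the P2Y receptors 0 of 7, of the ATP release genes 1 of 10 and of the ectonucleotidases 2 of 8.

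Among the relatives of Kcnk1 and Kcnk12, the tandem-pore-domain gene Kcnk16 was at 3.07, 1.60, 1.41 and 1.60 TPM in lean control rats 13 to 16 and at 3.00, 2.27, 3.86 and 2.77 TPM in obese + TT rats 17 to 20 (log2 difference 0.65, standard error 0.26, adjusted p = 0.632 from limma). Lean control rat 13 again stood apart from its group. Among the relatives of Kcnu1, the sodium-activated Slo channel gene Kcnt1 had means of 2.71 ± 0.43 and 1.89 ± 0.20 TPM (± SD, 4 rats each), a log2 difference of -0.49. Lrrc38, a gene for an auxiliary subunit of Slo channels, had means of 5.19 ± 0.71 and 2.55 ± 0.72 TPM (± SD, 4 rats each), with a log2 difference of -1.03 and an adjusted p of 0.375 from limma. Obese + TT and lean control rats did not overlap for Lrrc38, at 1.63 to 3.14 against 4.25 to 5.75 TPM. Of all genes, 4.02% had no overlap in either direction and 1.66% with the obese + TT rats lower. The study had picked Kcnk16, Kcnt1 and Lrrc38 on these same libraries, so their values are a description.

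A further 2 channel genes, Kcnj11 and Ano3, came from a list of 4 channels that the study named for this cohort, all 4 of which could be matched. They were put on that list for their difference in these libraries, so their values are a description. Kcnj11, the pore subunit of ATP-sensitive potassium channels, was at 1.88 to 2.84 TPM in the lean control and 1.09 to 2.53 TPM in the obese + TT group, with overlap (log2 difference -0.66). Ano3, of the anoctamin family, was near the bottom of the scale at 0.06 to 0.10 and 0.14 to 0.29 TPM (log2 difference 0.85).

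The abundant members of these lists lay far above the 5 channels. Kcnj13, the gene of the inward rectifier Kir7.1 of the epithelium, had means of 1296 ± 66.3 TPM in the lean control group and 1239 ± 86.4 TPM in the obese + TT group (± SD, 4 rats each; adjusted p = 0.866 from limma). Kcne2, an auxiliary subunit of voltage-gated potassium channels, was at 563.1 ± 27.6 and 615.0 ± 26.0 TPM (± SD, 4 rats each; adjusted p = 0.672 from limma). In the same groups Kcnk1 was at 115.9 and 101.0 TPM. Among the ectonucleotidases, Enpp2 (autotaxin, an ectonucleotidase that makes lysophosphatidic acid) was the most abundant at 5325 and 6010 TPM, and Entpd3, which like Kcne2 is named here after its values were seen and which breaks down extracellular ATP, was at 0.54 and 0.65 TPM.

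Injected and untreated rats of the same phenotype were also set side by side. These values are a description without a test, because the cohort, the injections and, in obese rats, testosterone differ together, and the untreated rats chose the genes. Groups did not overlap for 44.8% of genes between lean control and lean rats and for 45.8% between obese + TT and obese rats, as counted in TPM. The median log2 difference of all genes was 0.24 and 0.25 in TPM, 0.14 and 0.10 with Ttr left out, and -0.00076 and -0.014 in FPKM, so this shift depended on the scale. The channels are therefore read against the median.

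Calhm1 was higher in both injected groups, with a ratio of mean TPM of 1.84 between lean control and lean rats and 2.24 between obese + TT and obese rats. Its log2 differences were 0.89 and 1.298, or 0.65 and 1.05 above the median of all genes, and no injected rat overlapped the untreated rats of its phenotype. In TPM, 34.0 and 34.1% of all genes were likewise higher without overlap. The difference was lower than that of Calhm1 for 82.9 and 93.6% of genes. Kcnu1 was lower in both, with ratios of 0.69 and 0.41. Its log2 differences were -0.54 and -1.22, which lay -0.78 and -1.47 from the median of all genes, and the first was -0.25 without lean control rat 16. All 4 obese + TT rats were below every untreated obese rat, as for 11.7% of all genes, whereas 3 of 4 lean control rats lay within the range of the lean rats. Kcnk12 had a ratio of 1.04 in lean and 1.60 in obese rats, -0.19 and 0.41 from the median on the log2 scale. Its direction in lean rats turned with the scale, from 0.052 in TPM to -0.23 after scaling by the median ratio.

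Kcnk1 had a ratio of 1.14 in both phenotypes, and P2rx6 ratios of 0.99 and 1.07. The direction of Kcnk1 depended on the scale, and so did that of P2rx6 in obese rats. Relative to the median of all genes, Kcnk1 was at -0.070 and -0.057 and P2rx6 at -0.26 and -0.13 on the log2 scale. With scaling by the median ratio, the log2 difference of Kcnk1 was -0.12 between lean control and lean rats and -0.10 between obese + TT and obese rats, in place of 0.17 and 0.19. P2rx6 between obese + TT and obese rats was at 0.11 in TPM and at -0.17 with that scaling.

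Markers of some cell types also differed between the cohorts, while those of others overlapped. The 9 epithelial markers other than Ttr summed to 4422 to 5378 TPM in the untreated rats and to 6936 to 7490 TPM in the injected rats. Stromal and mural markers summed to 165.2 to 237.0 TPM in the untreated and 10.0 to 22.1 TPM in the injected rats. Plvap went from between 39.95 and 60.3 TPM to between 1.68 and 10.6 TPM. Cd74 went from between 134.05 and 218.1 TPM to between 26.4 and 87.0 TPM. Ependymal and ciliary markers (2 of 5 listed) overlapped, at 198.5 to 278.4 TPM in the untreated and 204.6 to 243.1 TPM in the injected rats. The red blood cell genes overlapped too, at 2468 to 5620 and 1759 to 6830 TPM. Of all 10 epithelial markers, the mean TPM of 8 was higher in lean control than in lean rats (not Ttr and Kcne2). That of 9 was higher in obese + TT than in obese rats (not Ttr). As the median log2 difference of all genes in TPM was itself 0.24 and 0.25, nothing is read from these counts. The part of these marker differences in the levels of Calhm1, Kcnk12 and Kcnu1 was not tested.

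**Figure D4:**
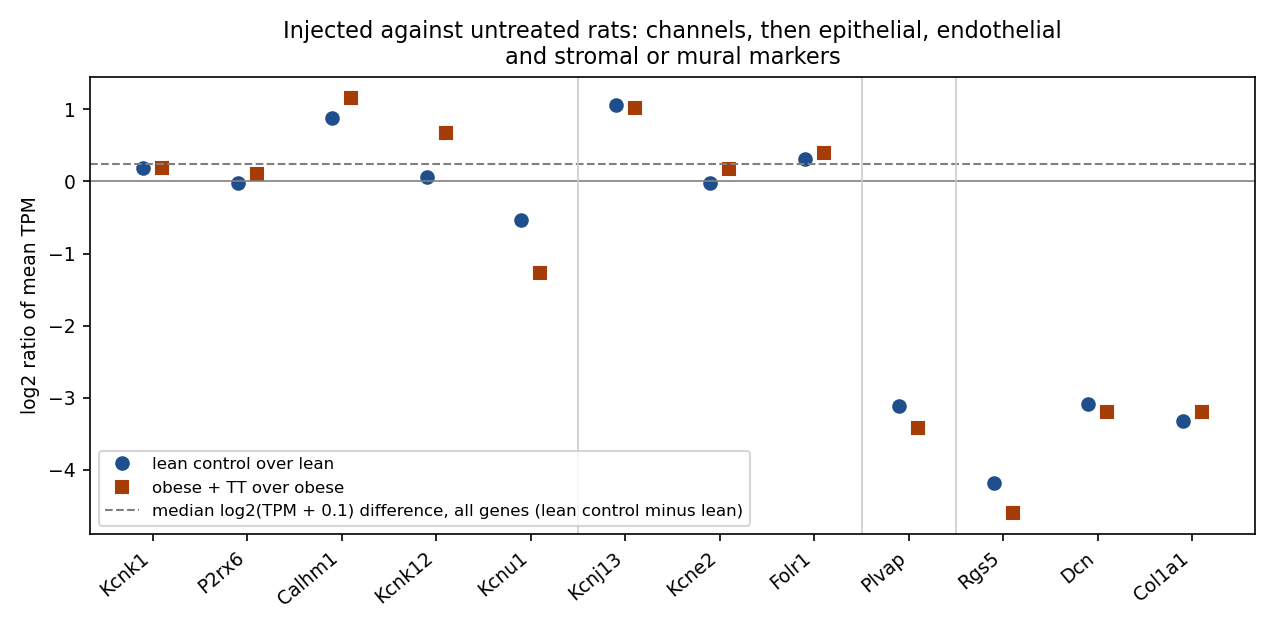
Log2 ratio of mean TPM (vertical axis) of lean control over lean rats (circles) and obese + TT over obese rats (squares) for the 5 channels, 3 epithelial markers (Kcnj13, Kcne2, Folr1), the endothelial marker Plvap and 3 stromal or mural markers (Rgs5, Dcn, Col1a1). The dashed line is the median over all genes of the difference of mean log2(TPM + 0.1) between lean control and lean rats (0.24). This measure is not quite that of the points, and the median between obese + TT and obese rats was 0.25. Plvap, Rgs5, Dcn and Col1a1 lie far below the line, Calhm1 lies above it in both pairs and Kcnu1 below it.

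Within groups, the 5 channels did not share one pattern over rats. With each value centred on its group mean over the 20 rats, Pearson's r between pairs of the 5 ran from -0.22 (Kcnk1 and P2rx6) to 0.26 (P2rx6 and Kcnu1, Spearman's rho 0.45). Without the 2 rats farthest from the median the range was -0.38 (Kcnk12 and Kcnu1) to 0.47 (P2rx6 and Kcnu1). The rats of a group share their cohort and treatment, and these values are a description. The genes most like each channel were then looked up among 12094 genes averaging 1 TPM or more. For Kcnk1 they were Dnajb11, an endoplasmic reticulum chaperone gene (r = 0.87, rho 0.90, r = 0.79 without the 2 rats farthest from the median, 13 and 14), Ghitm, a mitochondrial inner membrane protein gene (r = 0.84, rho 0.84, r = 0.87 without them), and Pdgfra, a receptor tyrosine kinase gene of stromal cells (r = 0.82, rho 0.75, r = 0.70 without them). For Kcnu1 the first was Pdlim2, a gene for a PDZ and LIM domain protein (r = 0.84, rho 0.78, r = 0.76 without rats 16 and 20), and the next 2 had r = 0.79 each.

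The other nearest genes have no symbol in the tables used here. For P2rx6 the closest was ENSRNOG00000019020 (r = 0.88, rho 0.83, r = 0.80 without rats 7 and 9) and the next 2 had r = 0.85 and 0.82. For Calhm1 it was ENSRNOG00000014834 (r = 0.86, rho 0.82, r = 0.77 without rats 8 and 11), followed by r = 0.84 and 0.83. Kcnk12 had the weakest nearest gene of the 5, ENSRNOG00000021691 (r = 0.74, rho 0.71, r = 0.69 without rats 3 and 10), followed by r = 0.74 and 0.71. As the 3 nearest of 12094 genes were picked by their r, high values are bound to be found, and no p-value is given.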

How the data were processed

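Paired-end reads were mapped by the authors with STAR 2.7.9a to Rnor_6.0. The submitters' processing notes also name RSEM 1.3.3, without its role. TPM of 32883 Ensembl genes in each rat, summing to 1000000 within rounding, were deposited, and so was FPKM, used here only as an alternative. How many reads stand behind a value is not known. Ratios of FPKM between 0.5 and 2 showed no steps of whole reads in 190 pairs of libraries, where the fullest bin of 0.04 on the log2 scale held 2.61 to 6.77% of genes. No duplicate library was found (42 pairs within groups, at most 1.92% of genes identical).

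Symbols came from the study's published gene tables, which name 2616 identifiers, mostly abundant genes or genes the study had picked. Overlapping genes came from RefSeq (GRCr8). The members, lists and tests were chosen with earlier results of these data known. Named genes are the 5 channels, list members with an unadjusted p under 0.05, the most abundant of each list and the 3 genes most correlated with each channel.

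Groups were compared with limma 3.58.1 in R 4.3.3 on log2(TPM + 0.1), keeping genes that averaged 0.1 TPM or more in the 8 injected libraries, with a trend and without the robust option of eBayes. The design has no covariates. Calls were made below an adjusted p (Benjamini-Hochberg) of 0.05. The fit was tested on simulated data. Single genes were compared by exact permutation of the rats in SciPy 1.17.1. Figures were drawn with matplotlib 3.10.9. Alternatives changed the pseudocount, filter, eBayes options, scale, unit and rats of the fit. Leaving out lean control rats 13 and 14 together was added after the data were seen. No interval or floor for counting error could be given without read numbers. No protein or other sequence of the 5 genes is shown here.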

Additional observations from a re-analysis of the deposited data

Results flagged for a closer look

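Kcnk12 in lean control rat 16 was at 3.48 TPM, far from the other lean control rats, which lay between 1.75 and 2.02 TPM. It was the only 1 of 20 groups (5 channels in 4 groups of rats) in which a rat stood that far from the rest, and chance alone gives about 1 in 20. Without this rat the log2 difference of Kcnk12 between obese + TT and lean control rats was 0.013 in place of -0.19. No explanation was tested.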

How the results depend on the processing

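No channel had an adjusted p under 0.05 in limma in any setting tried, and Kcnk1, P2rx6 and Calhm1 were lower in the obese + TT rats in all of them. With 1 rat left out, the log2 difference lay between -0.30 and -0.12 for Kcnk1, -0.14 and -0.10 for P2rx6, -0.13 and -0.024 for Calhm1, -0.33 and 0.013 for Kcnk12 and -0.50 and 0.013 for Kcnu1. Without lean control rats 13 and 14 together, that of Kcnu1 was 0.21. The number of all genes called was 0 to 25 with 1 rat left out (25 without lean control rat 13), 6 in a fit of all 20 rats and 4 without rats 13 and 14. The number of channels at an unadjusted p under 0.05 was 0 or 1 with 1 rat left out (1, Kcnk1, without rat 13), and 1 without the filter (P2rx6), 1 with TPM rescaled without Ttr (P2rx6) and 1 without rats 13 and 14 (Kcnk1). The number of the 9 other listed genes, Kcnj11 and Ano3 included, at that level was 2 to 5 with 1 rat left out and 3 without rats 13 and 14. Kcnu1 gives no value at a minimum mean of 1 TPM. In the untreated rats the sign of all 5 differences was the same in every setting, but Calhm1 moved from -0.47 to -0.26 without obese rat 8, to -0.68 without obese rat 11 and to -0.30 with a pseudocount of 1, and Kcnk12 from -0.79 to -0.52 with that pseudocount. Between the cohorts, a pseudocount of 1 moved Kcnu1 from -0.54 to -0.29 in lean and from -1.22 to -0.69 in obese rats. The causes were not tested. No paired analysis was possible because no groups share replicate numbers. With 4 rats of each group and levels near 1 TPM, intervals as wide as that of Kcnu1 leave room for a change in either direction.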
